A study of Mus musculus with 4 samples.

Results

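The 47 genes described here encode the machinery that copies DNA in S phase and the enzymes that supply it with deoxynucleotides. They form a fixed list of gene symbols, and every probe set (a group of short oligonucleotide probes that together report 1 transcript) annotated to exactly 1 gene was taken when that gene was on the list. This gave 103 member probe sets out of 34945 on the array with 1 gene symbol, and it covered 47 of the 47 listed genes out of 18193 genes with such a probe set. RNA came from mouse blastocysts at 96 hours (day 4) and was hybridised to 4 Affymetrix arrays, 1 per condition, each with RNA of 1 pool of 30 embryos, amplified by the two-cycle Affymetrix method. The conditions were parthenogenetic diploid embryos, parthenogenetic tetraploid embryos made by fusing embryos, fertilized diploid embryos grown from zygotes, and fertilized tetraploid embryos, likewise made by fusion. Parthenogenetic embryos develop from activated eggs with maternal chromosomes alone. The sources used here give neither the mouse strain nor how eggs were activated or cultured. The study used the tetraploid pool as a stand-in for a second diploid pool of the same origin, so each condition stands on a single array, and every p-value below measures only the spread between these arrays.

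A cell prepares an origin of replication by loading the MCM helicase onto DNA. The origin recognition complex (ORC) marks the site, CDC6 and CDT1 help place the ring of MCM proteins, and geminin, encoded by Gmnn, binds CDT1 and blocks a repeat loading. In S phase the kinase CDC7 with its partner DBF4 fires the loaded helicase, which becomes active once CDC45 and the GINS complex join it. DNA polymerase alpha with primase starts each strand, and polymerases delta and epsilon extend it while held by the sliding clamp PCNA, which the RFC complex loads. RPA coats the single strands, FEN1 and LIG1 finish the lagging strand, and ribonucleotide reductase (RRM1, RRM2), thymidylate synthase (TYMS), dUTPase (DUT) and thymidine kinase (TK1) supply or guard the nucleotide pool. Blastocyst cells divide rapidly, and many of these genes are known targets of E2F transcription factors.

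The promoters that hold a consensus E2F word are shown first, because E2F control is the textbook feature that links members of different subgroups. In RefSeq sequence of build GRCm38.p6, 39 of the 47 members had a promoter entry covering 250 bases before to 50 bases after a gene start. An E2F word (TTTCCCGC, TTTCGCGC, TTTGCCGC or TTTGGCGC, on either strand) was found in at least 1 promoter of 14 of the 39 members, 35.9%, and of 704 of all 27025 genes of the table, 2.6%. The words may overlap each other on opposite strands. The word was present in 4 of 8 licensing genes, 5 of 10 helicase genes, 3 of 6 polymerase genes, 1 of 5 clamp and clamp loader genes, 1 of 5 maturation and single-strand binding genes and 0 of 5 nucleotide supply genes with an entry. The CCAAT box (CCAAT, either strand) was in 23 of the 39 members, 59%, against 41.1% of all genes. A match is a description of the letters and not a site of binding, and no match says only that these letters are not in this window. Stretches of 60 bases, all upstream of the gene start and 5′ to 3′ on the gene's own strand, follow for 7 members whose signals are described further on, with the E2F words in capitals.
Orc3 (chr4:34614950-34615009, minus strand): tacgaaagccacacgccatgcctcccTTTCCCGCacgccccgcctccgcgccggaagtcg
Cdc6 (chr11:98907987-98908046, plus strand): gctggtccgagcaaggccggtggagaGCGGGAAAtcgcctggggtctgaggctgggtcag
Mcm5 (chr8:75109332-75109391, plus strand): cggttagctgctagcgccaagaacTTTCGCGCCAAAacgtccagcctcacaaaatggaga
Mcm6 (chr1:128359780-128359839, minus strand): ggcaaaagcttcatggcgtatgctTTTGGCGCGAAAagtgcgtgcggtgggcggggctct
Mcm7 (chr5:138172015-138172074, minus strand): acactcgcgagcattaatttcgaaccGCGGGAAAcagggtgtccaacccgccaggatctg
Pola1 (chrX:93632260-93632319, minus strand): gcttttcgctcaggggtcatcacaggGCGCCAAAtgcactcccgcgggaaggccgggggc
Rfc3 (chr5:151651209-151651268, minus strand): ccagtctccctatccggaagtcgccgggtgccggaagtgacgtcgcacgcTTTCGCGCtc
In Mcm5 and in Mcm6, words on opposite strands overlap into 1 longer run of capitals. Pola1 was the only member annotated to the X chromosome.

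Values are MAS5 signals on a linear scale. Tests used log2(signal + 10), so that differences of dim genes are understated, and a gene was represented by its probe set with the highest mean signal. All 47 members passed the filter on dim probe sets, as did 11341 genes in all, and 46 of the 47 were above the control floor (the 95th percentile of 27 bacterial control probe sets of the same array) on all 4 arrays. Signals of different probe sets are not comparable as levels, so each gene is compared only with itself across arrays. The blastocyst label was borne out by its markers: 8 of 8 trophectoderm, 6 of 6 inner cell mass and 4 of 5 primitive endoderm markers were above the floor on all 4 arrays, while 0 of 7 oocyte, 0 of 6 cumulus and 0 of 6 fibroblast markers were. Only 3 oocyte, 2 cumulus and 3 fibroblast markers were above it on no array. The others passed it on some array, such as the cumulus marker Has2, at 300 on the parthenogenetic diploid array. Summed signals ran from 83200.5 to 94103 for trophectoderm, 277 to 841 for oocyte, 139.9 to 739 for cumulus and 277 to 506 for fibroblast markers. The parthenogenetic tetraploid array stood apart in 2 marker sums. Its summed inner cell mass signal was 3775 and those of the other 3 arrays 6411 to 7569, and its primitive endoderm sum was 14515 beside 27424 to 30750. Of the inner cell mass markers, Nanog, Sox2 and Fgf4 were lowest on that array. Klf2, Esrrb and Pou5f1 were not, and Pou5f1 had 708 there beside 581 and 604 on the fertilized arrays. The parthenogenetic tetraploid array also had the highest ratio of 3′ to middle Actb probe sets, 9.28 beside 5.13 to 7.55, with 5.22 beside 3.72 to 4.08 for Gapdh. Its ratio of 3′ to 5′ probe sets lay within the range of the others, at 127 for Actb (108 to 137) and 24.3 for Gapdh (19.0 to 27.3). That array also had the lowest of the 4 signals for 30 of the 47 members (31.0% of all genes tested were lowest there), and the fertilized diploid array had the highest for 26 (26.1%). The part of cell makeup and of RNA quality in the member values was not tested, and in pooled embryos fewer cells of a type and less RNA per cell cannot be told apart.

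Parthenogenetic embryos were compared with fertilized embryos first, which is the comparison the series was designed for. For 39 of the 47 members the mean log2 signal was lower in parthenogenetic than in fertilized embryos, against 48.5% of all genes tested, and for 8 it was higher. The median log2 difference over the members was -0.34, with a range from -1.38 for Gins4 to 0.42 for Prim2, while the median over all genes was 0.019. No single member passed limma's test with Benjamini-Hochberg adjustment over all 23746 probe sets tested: 0 of 47 had an adjusted p under 0.05 (0.173% of all probe sets did), and the lowest adjusted p was 0.29, for Dut. At an unadjusted p under 0.05, 11 members were lower and 0 higher, where 4.54% and 5.49% of all genes were. Both parthenogenetic signals lay below both fertilized signals for 19 members and above both for 3, and for the other 25 the groups overlapped; over all genes these shares were 19.5% lower and 22.3% higher. With arrays rescaled to a common median, 44 members were lower, their median was -0.66 and that of all genes was -0.30, and Gins3, Cdc7, Pola1, Rfc1 and Fen1 changed sign. With the filter raised to the 75th percentile of each array, which keeps brighter genes, 37 of 45 members were lower (54.6% of all genes). There 19 members were lower without overlap (25.0% of all genes).

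**Figure D1:**
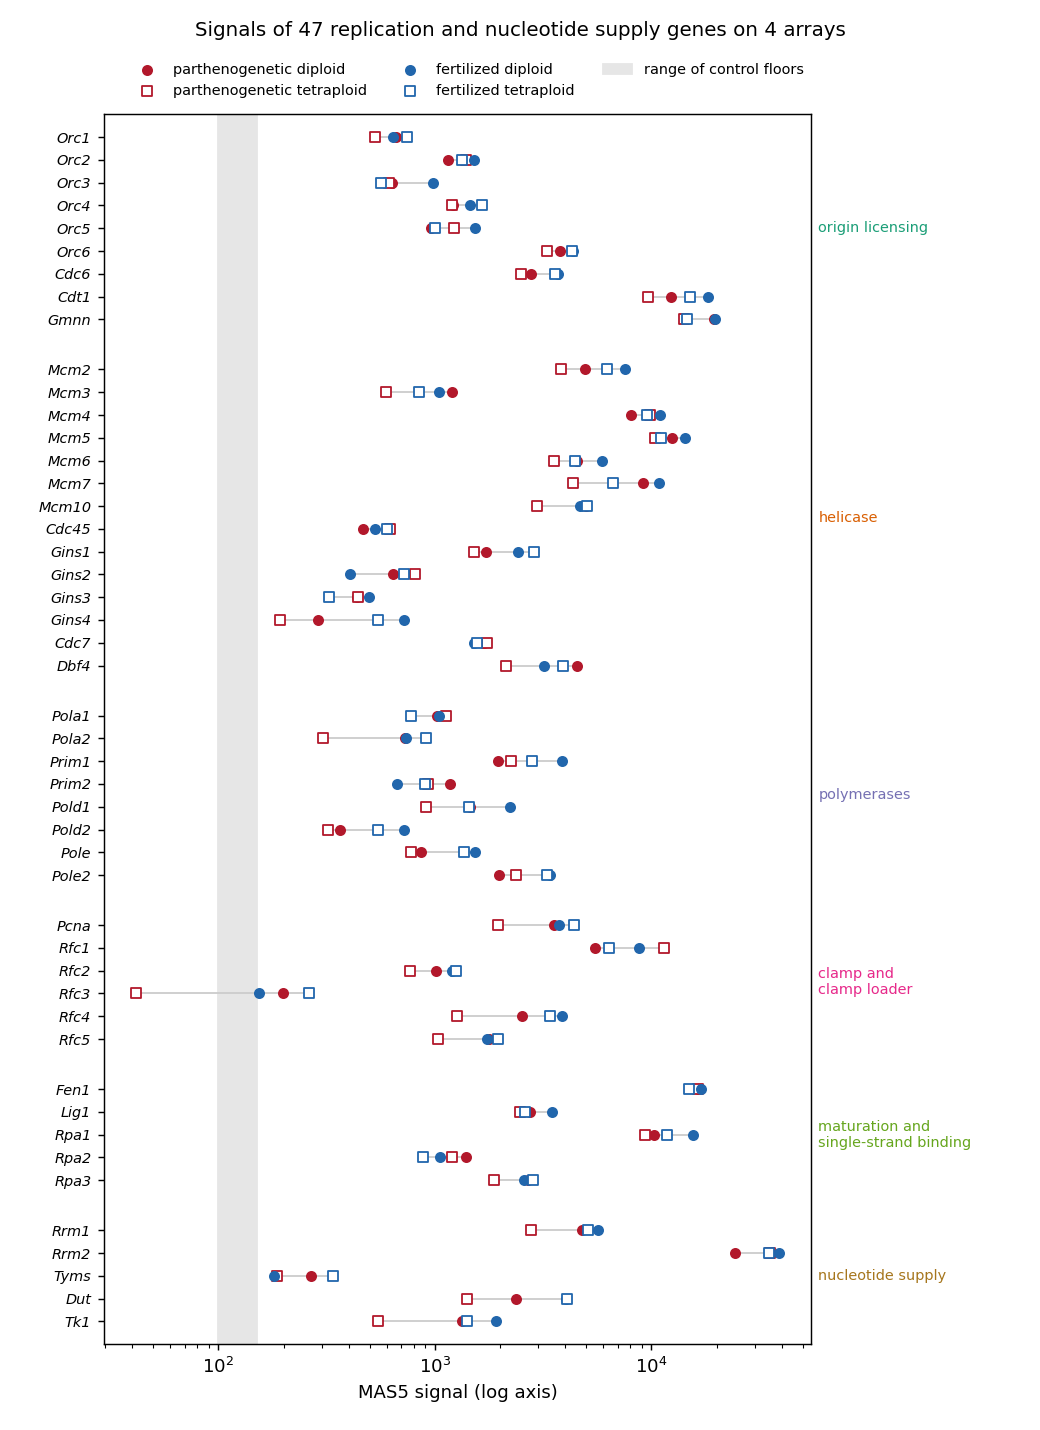
MAS5 signal (log axis) of the representative probe set of each of the 47 members on the 4 arrays, 1 point per array with no error since each condition has 1 array, grouped by role. The grey band spans the control floors of the 4 arrays, and Rfc3 on the parthenogenetic tetraploid array, at 41.7, is the one point below its own array's floor.

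The origin difference was present in both ploidies in value. In the diploid pair 35 of 47 members were lower in parthenogenetic embryos, with a median difference of -0.25 (5597 of all 11341 genes, median 0.0086). In the tetraploid pair 33 were lower, with a median of -0.48 (5371 of all 11341 genes, median 0.049). Of the 47, 25 were lower in both pairs (27.5% of all genes), 4 were higher in both (3496 of all 11341 genes), and 18 differed in sign between the pairs (41.6% of all genes). The difference was the more negative one in the tetraploid pair for 27 members (49.0% of all genes). A difference of at least 2-fold was rarer: 1 member was at least 2-fold lower in the diploid pair (8.14% of all genes) and 7 in the tetraploid pair (10%), and 0 were 2-fold higher in either (9.82% and 14.7%). Members were brighter than all genes tested, with median signals of 2130 and 531. Whether brightness bears on these shares was not tested. Leaving out the parthenogenetic tetraploid array moved the member median to -0.19. Leaving out the parthenogenetic diploid array moved it to -0.53, and 4 members then had a limma adjusted p under 0.05 (715 of 23746 probe sets did, 3.01%), all lower: Dut (0.009), Rfc4 (0.011), Tk1 (0.02) and Gins4 (0.043). In that fit the lone parthenogenetic array was assumed to vary like the fertilized arrays.

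**Figure D2:**
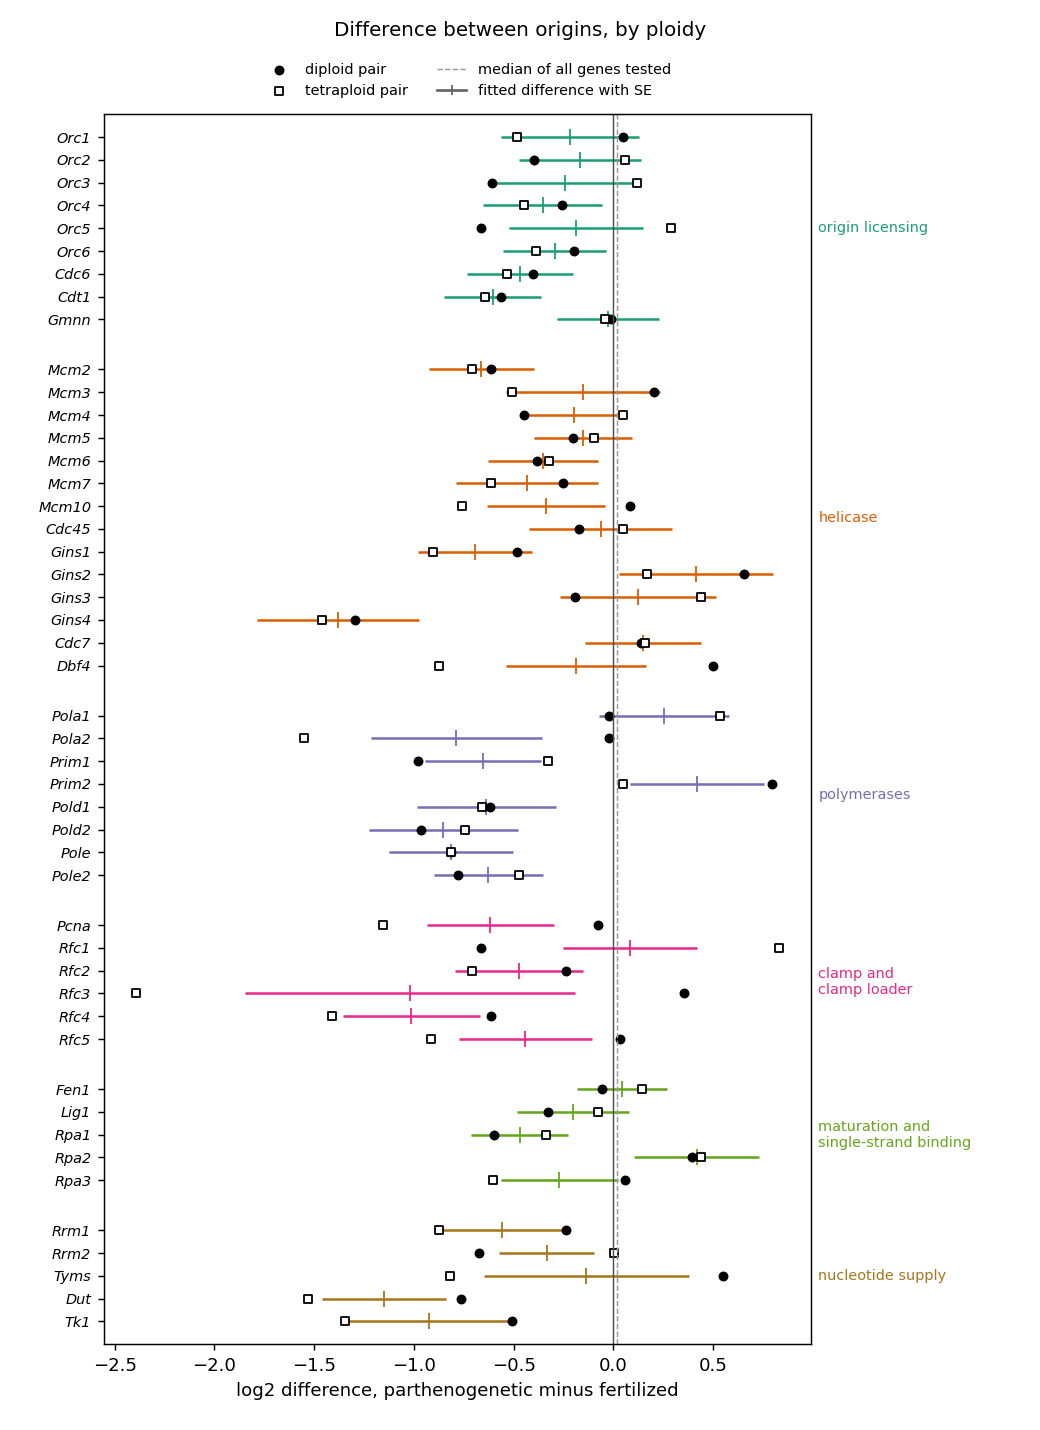
Log2 difference, parthenogenetic minus fertilized, for each of the 47 members: black circles for the diploid pair, open squares for the tetraploid pair, and a coloured tick with its standard error for the fitted difference over both. Most ticks lie left of 0, and the circle and square lie far apart for Rfc1, Rfc3, Pola2, Dbf4 and Tyms.

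Among the 9 origin licensing genes, 9 were lower in value in parthenogenetic embryos, with a median difference of -0.24. In 4 of them (Orc4, Orc6, Cdc6 and Cdt1) the groups did not overlap (19.5% of all genes were lower without overlap). Cdt1, which helps place the MCM ring, had signals of 12310.5 and 9601 on the parthenogenetic arrays and 18197 and 15019 on the fertilized arrays, given here and below with the diploid array first (log2 difference -0.60 ± 0.24 SE, limma adjusted p 0.53). Its lower fertilized signal, on the tetraploid array, was above its higher parthenogenetic one. Cdc6, the other loading factor, had signals of 2787 and 2488 on the parthenogenetic arrays and 3688 and 3604 on the fertilized arrays (log2 difference -0.47 ± 0.27 SE, limma adjusted p 0.62), and neither origin varied much with ploidy. Among the 6 ORC subunits, Orc4 differed most, with signals of 1217 and 1201 against 1458 and 1643 (log2 difference -0.35 ± 0.30 SE, limma adjusted p 0.73). The other 3 tested Orc4 probe sets differed by -0.032, 0.42 and 1.26, the last with its fertilized tetraploid signal below the control floor. Orc6 had signals of 3779 and 3292 against 4336 and 4316, lower in both pairs, and Orc1 had 662 and 529.8 against 640.2 and 745, with overlapping groups. Gmnn, the inhibitor of CDT1, showed nearly the same signals in both origins, 19496 and 14209.8 against 19663 and 14628 (log2 difference -0.027 ± 0.26 SE). Orc2, Orc3 and Orc5 were lower in the diploid pair only, at -0.40, -0.61 and -0.66, and slightly higher in the tetraploid pair, at 0.059, 0.12 and 0.29.

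The 14 genes of the helicase and its activation included 11 lower and 3 higher in value, with a median of -0.19. The 6 genes of the MCM ring, Mcm2 to Mcm7, were all lower in value, from -0.66 for Mcm2 to -0.15 for Mcm5. Only for Mcm2 did the groups not overlap (19.5% of all genes were lower without overlap). Mcm2 had signals of 4911 and 3822 on the parthenogenetic arrays and 7527 and 6254 on the fertilized arrays (log2 difference -0.66 ± 0.26 SE, limma adjusted p 0.53). Its other tested probe set, with 3922 and 2680 against 3236 and 3308, overlapped between origins and differed by -0.013. Mcm5 and Mcm6, whose promoters are shown above, had signals of 12395 and 10365 against 14265 and 11095 and of 4508 and 3554 against 5885 and 4441, and in both genes the parthenogenetic and fertilized values overlapped. Mcm3, Mcm4 and Mcm7 also overlapped between origins, with log2 differences of -0.15 ± 0.39, -0.20 ± 0.24 and -0.43 ± 0.36 SE. Mcm10, which helps start the helicase, had 4981 and 2968 against 4702 and 5019, and only its parthenogenetic tetraploid signal was low. Cdc45, a subunit of the active helicase, had 468 and 618 against 528 and 598 and hardly differed by origin on its brightest probe set (log2 difference -0.063 ± 0.36 SE). Its other probe set had 241 and 129 against 258 and 277, without overlap, and differed by -0.57. There the parthenogenetic tetraploid signal was below the control floor. The 4 subunits of GINS, which bind one another in the complex that joins the helicase, did not share a direction. Gins4 had the most negative difference of all 47 members, with signals of 289 and 192 on the parthenogenetic arrays and 723 and 546 on the fertilized arrays (log2 difference -1.38 ± 0.41 SE, limma adjusted p 0.35). Its higher parthenogenetic signal was far below its lower fertilized signal, and it was the only member at least 2-fold lower in the diploid pair. Gins1 was also lower without overlap, with signals of 1728 and 1521 against 2415 and 2855 (log2 difference -0.69 ± 0.29 SE, limma adjusted p 0.54). Gins2 was higher in value, with 643 and 810.4 against 404 and 719 (log2 difference 0.41 ± 0.39 SE). Its dimmer probe set went the other way at -1.84, with 196 and 6.73 against 184 and 216. That difference rests on the 6.73 of the parthenogenetic tetraploid array, which is below the control floor. Gins3 differed by 0.12 ± 0.39 SE. Of the kinase pair that fires origins, Cdc7 was slightly higher in both pairs, with 1679.9 and 1746 against 1523 and 1563. On its brightest probe set, Dbf4 was higher in the diploid pair (0.50) and lower in the tetraploid pair (-0.87). The other Dbf4 probe set was lower in both pairs, at -0.35 and -1.39, with 247 and 88.5 against 318 and 248. Its parthenogenetic tetraploid signal was below the control floor.

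The polymerase genes had a median of -0.64 over 8 genes, and 5 of the 8 were lower without overlap between origins (19.5% of all genes were). Pole and Pole2, the catalytic and second subunits of polymerase epsilon, were among them. Pole had signals of 864 and 771 on the parthenogenetic arrays and 1527 and 1363 on the fertilized arrays (log2 difference -0.81 ± 0.31 SE, limma adjusted p 0.52), and its difference was -0.81 in the diploid and -0.81 in the tetraploid pair. Pole2 had signals of 1969 and 2366 against 3384 and 3289 (log2 difference -0.63 ± 0.27 SE, limma adjusted p 0.56). The small epsilon subunits, from the list of other replication genes, did not share 1 direction: Pole3 had 416 and 488 against 203 and 399.7, with both parthenogenetic values the higher ones, and Pole4 had 1183 and 1128 against 1213 and 1396, with both the lower ones. Pold2, an accessory subunit of polymerase delta, had 366 and 321 against 723 and 544 (log2 difference -0.85 ± 0.37 SE, limma adjusted p 0.56), and the catalytic subunit Pold1 had 1449 and 910.4 against 2226 and 1441 (log2 difference -0.64 ± 0.35 SE). For Pold1 the parthenogenetic diploid signal was just above the fertilized tetraploid one, so the groups overlapped. Of the 4 genes of polymerase alpha and primase, 2 were lower and 2 higher in value, and with arrays rescaled to a common median Pola1 joined the lower ones. Pola2, the regulatory subunit of polymerase alpha, was lower in mean (log2 difference -0.79 ± 0.43 SE, limma adjusted p 0.61), but its signals of 727 and 304 against 738 and 911 differed in the tetraploid pair and were nearly equal in the diploid pair. Prim1, the catalytic primase subunit, had signals of 1959 and 2237 against 3868 and 2812 (log2 difference -0.65 ± 0.29 SE, limma adjusted p 0.56), and both parthenogenetic values were the lower ones. Prim2, the large primase subunit, was the other way round, with 1171 and 933 against 671 and 903 and groups that did not overlap (log2 difference 0.42 ± 0.34 SE), while its second tested probe set differed by -0.086. Pola1, the catalytic subunit of polymerase alpha, differed by 0.26 ± 0.33 SE, with signals of 1027 and 1128 against 1042 and 775.

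The clamp PCNA and the 5 subunits of its loader had a median of -0.54, which rested on the tetraploid arrays: the median was -0.16 in the diploid pair and -1.04 in the tetraploid pair. Pcna had signals of 3541 and 1959 on the parthenogenetic arrays and 3733 and 4379 on the fertilized arrays (log2 difference -0.62 ± 0.32 SE, limma adjusted p 0.6). Its diploid signals were close to each other, and the parthenogenetic tetraploid signal was the low one. Rfc4 had 2534 and 1268 against 3877 and 3391 (log2 difference -1.01 ± 0.34 SE, limma adjusted p 0.45), lower in both pairs, and its other probe set gave -1.06. Rfc3, the dimmest member, had signals of 198 and 41.7 against 153 and 261 (log2 difference -1.02 ± 0.83 SE, limma adjusted p 0.72), with the parthenogenetic tetraploid value below the control floor of that array. A second Rfc3 probe set was below the floor on both parthenogenetic arrays (52.3 and 8.12) and above it on both fertilized arrays (246 and 289.6), which is at least 1.97-fold higher in fertilized embryos when the dim side is set at the floors (limma adjusted p 0.52). Rfc2 had 1016 and 764 against 1199.8 and 1254, with no overlap, and Rfc5 had 1783 and 1032 against 1741 and 1954, where only the parthenogenetic tetraploid signal was low (log2 differences -0.47 and -0.44). Rfc1, the large subunit, differed in sign between the pairs on its brightest probe set, with 5509 and 11383 against 8728 and 6394. Another of its probe sets was lower in both pairs, at -0.34 and -0.63.

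The 5 genes of strand maturation and single-strand binding had a median of -0.20. The 3 subunits of RPA, which work as 1 trimer, again did not share a direction. Rpa1, the large subunit, had signals of 10263 and 9332 on the parthenogenetic arrays and 15558 and 11807 on the fertilized arrays (log2 difference -0.47 ± 0.24 SE, limma adjusted p 0.6), with both parthenogenetic values below both fertilized ones. Rpa2 had 1397 and 1199 against 1061 and 881 (log2 difference 0.42 ± 0.31 SE, limma adjusted p 0.7), with both parthenogenetic values above both fertilized ones. Rpa3, the smallest, had 2702 and 1874 against 2590.0 and 2848 (log2 difference -0.27 ± 0.29 SE, limma adjusted p 0.79), and there only the parthenogenetic tetraploid signal was low. Fen1, the flap nuclease, had similar signals on all 4 arrays, with 16363 and 16448 against 17015 and 14908, and Lig1, the ligase, had 2753 and 2469 against 3456 and 2603.

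All 5 nucleotide supply genes were lower in value in parthenogenetic embryos, with a median of -0.56. Dut, which removes dUTP from the pool, had the lowest adjusted p of the members, with signals of 2371 and 1400.0 on the parthenogenetic arrays and 4038 and 4063 on the fertilized arrays (log2 difference -1.15 ± 0.31 SE, limma adjusted p 0.29). Its fertilized signals were nearly equal, both parthenogenetic signals were lower, and the tetraploid one was the lowest. Its other probe set, with 308 and 164 against 119 and 211 and the fertilized diploid value below the control floor, differed by 0.48, and the mean over both gave -0.33 (limma adjusted p 0.78). Tk1, the thymidine salvage kinase, had 1339 and 546 against 1908 and 1401 (log2 difference -0.93 ± 0.41 SE, limma adjusted p 0.56), where the parthenogenetic diploid signal came close to the fertilized tetraploid one. Rrm1, the large subunit of ribonucleotide reductase, had 4787 and 2779 against 5639.7 and 5105 (log2 difference -0.56 ± 0.30 SE, limma adjusted p 0.61), with no overlap. Rrm2, its small subunit, had 24395 and 35182 against 38845 and 35053 on its brightest probe set (log2 difference -0.33 ± 0.24 SE), where only the parthenogenetic diploid signal was low. The dimmest Rrm2 probe set had 608 and 437 against 1579 and 1116 (log2 difference -1.35 ± 0.35 SE, limma adjusted p 0.26), and the third gave 0.10. Tyms, which makes thymidylate, was near the floor with 269 and 187 against 180.3 and 338 and differed in sign between the pairs.

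Set side by side, the subgroup medians stood in a different order in the diploid and the tetraploid pair. Polymerase genes had similar medians in the diploid and tetraploid pairs, -0.70 and -0.57, as did licensing genes, -0.40 and -0.39. The tetraploid median was the more negative one for helicase genes (-0.20 and -0.41), nucleotide supply genes (-0.51 and -0.88) and clamp genes. Of the 7 members at least 2-fold lower in the tetraploid pair, 3 were clamp or clamp loader genes (Pcna, Rfc3 and Rfc4), 2 nucleotide supply genes (Dut and Tk1), 1 a polymerase gene (Pola2) and 1 a helicase gene (Gins4). Without the parthenogenetic tetraploid array the subgroup medians were -0.52 for polymerases, -0.31 for licensing, -0.29 for nucleotide supply, -0.23 for the clamp and its loader, 0.0073 for the helicase and -0.0077 for maturation and single-strand binding. Which subgroup was lowest depended on the arrays: without the parthenogenetic diploid array nucleotide supply had -0.95, the clamp and its loader -0.94 and polymerases -0.73, and without the fertilized diploid array the clamp and its loader had -0.63 and polymerases -0.51. The stricter filter also put nucleotide supply (-0.74) below polymerases (-0.64). Differences between subgroups were not tested. The pairs share no array, and over the 47 genes their differences had a Pearson correlation of 0.10, where all 11341 genes had 0.19. This is a description across genes, which share arrays and are not independent.

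**Figure D3:**
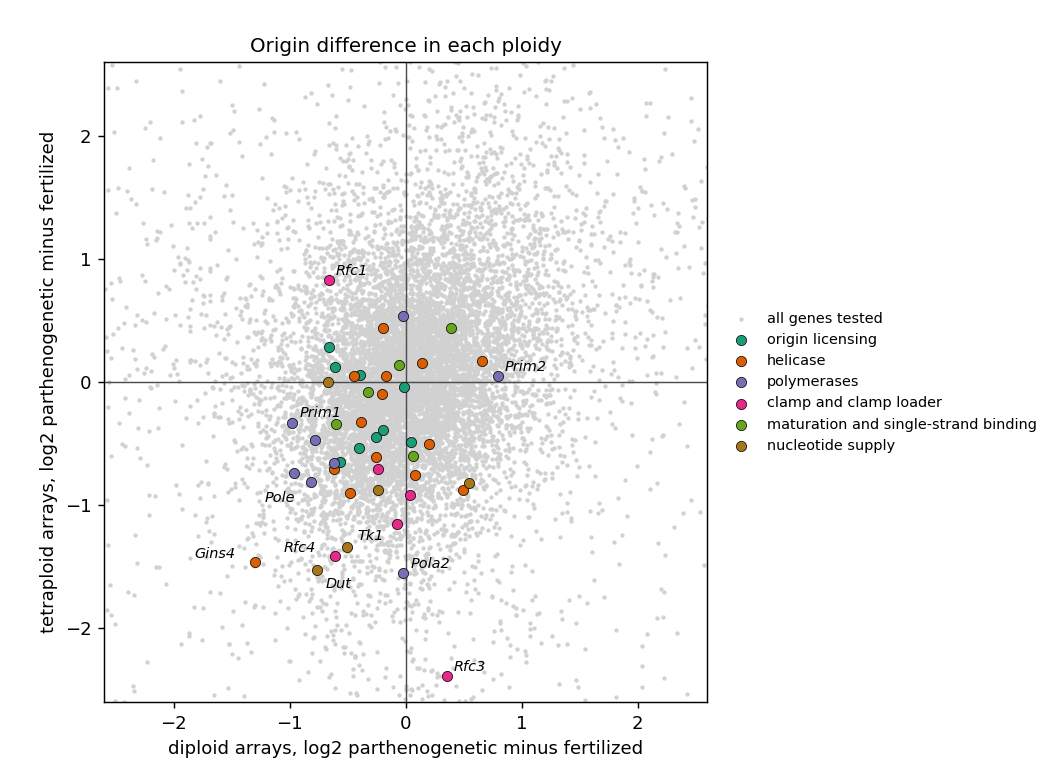
Log2 difference, parthenogenetic minus fertilized, in the diploid pair (x axis) and the tetraploid pair (y axis), with 1 coloured point per member by subgroup and grey points for all genes tested; 810 genes lie outside the axes. The lower left corner, lower in both pairs, holds 25 of the 47 members, and Gins4, Dut and Rfc4 lie farthest into it.

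Tetraploid embryos were compared with diploid ones in a fit that also held origin as a term, with 1 residual degree of freedom. In value 35 of 47 members were lower in tetraploid embryos (54.2% of all genes), with a median log2 difference of -0.27 against -0.053 over all genes. No member was called by limma after Benjamini-Hochberg adjustment, nor was any of the 23746 probe sets (0%), and the lowest adjusted p of a member was 0.66, for Mcm7. At an unadjusted p under 0.05, 4 members were lower and 0 higher (3.96% and 3.01% of all genes). The 4 signals separated by ploidy, tetraploid lower, for 8 members, Orc3, Gmnn, Mcm3, Mcm5, Mcm6, Mcm7, Pold1 and Lig1 (17.6% of all genes), and tetraploid higher for 2, Cdc45 and Gins2 (13.4%). This comparison depended on the parthenogenetic tetraploid and on the fertilized diploid array. Without the parthenogenetic tetraploid array 18 of 47 members were lower and the median was 0.037 (53.1% and -0.034 over all genes). Without the fertilized diploid array 30 of 47 were lower and the median was -0.074, no lower than that of all genes (56.5% and -0.080 over all genes). A median of -0.42 was reached when the fertilized tetraploid array was left out (0.0092 over all genes).

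Of the 6 genes of the MCM ring, 5 were lower in value in tetraploid embryos on their brightest probe sets, and 4 of those separated by ploidy (17.6% of all genes). Other tested probe sets gave 0.25 and 0.13 for Mcm5 and -0.47 and -0.17 for Mcm6, and ran from -0.64 to 0.088 for Mcm3. The 0.13 and the -0.17 came from probe sets with signals below the control floor. Mcm7 had signals of 9096 and 10845 on the diploid arrays (parthenogenetic first) and 4333 and 6628 on the tetraploid arrays (log2 difference -0.89 ± 0.24 SE, limma adjusted p 0.66). With quantile normalization, which called 53 probe sets (0.223%), Mcm7 was the 1 member called, with a log2 difference of -0.93 and a limma adjusted p of 0.047. Its other 3 probe sets were lower too, from -0.85 to -0.50, but 1 of these rose in the fertilized pair, from 645 to 936, and did not separate by ploidy. Mcm3 had 1204 and 1046 against 592 and 845 (log2 difference -0.66 ± 0.33 SE, limma adjusted p 0.83), with its lowest value again on the parthenogenetic tetraploid array. Mcm4 was the exception in the ring, at 0.041. Gmnn, which barely differed by origin, had 19496 and 19663 against 14209.8 and 14628 (log2 difference -0.44 ± 0.24 SE, limma adjusted p 0.84), a difference of -0.46 in the parthenogenetic and -0.43 in the fertilized pair. Orc3 had 636 and 976 against 615 and 565 (log2 difference -0.41 ± 0.35 SE, limma adjusted p 0.87). On that probe set nearly all of it lay in the fertilized pair. A dimmer tested Orc3 probe set, with 305 and 237 against 158 and 115, differed by -0.95. Its difference was -0.91 in the parthenogenetic and -0.99 in the fertilized pair.

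Pold1, the catalytic subunit of polymerase delta, had 1449 and 2226 against 910.4 and 1441 (log2 difference -0.64 ± 0.28 SE, limma adjusted p 0.81), with like differences in the parthenogenetic and fertilized pairs, -0.66 and -0.62. Tk1 had 1339 and 1908 against 546 and 1401 (log2 difference -0.86 ± 0.31 SE, limma adjusted p 0.76). Its tetraploid fertilized signal was above its diploid parthenogenetic one, so the groups overlapped. Rrm1, with a log2 difference of -0.46, Rfc4, with -0.59, and Pola2, with -0.47, were low on the parthenogenetic tetraploid array rather than on both tetraploid arrays. Rfc3 differed in sign between the origins, at -2.01 and 0.73. Lig1 and Rpa1 differed by -0.28 and -0.27. In the other direction, Gins2 had 643 and 404 on diploid and 810.4 and 719 on tetraploid arrays (log2 difference 0.57), and Cdc45 differed by 0.29.

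By subgroup the median ploidy difference ran from -0.37 for nucleotide supply, -0.31 for the helicase and -0.31 for the clamp and its loader to -0.24 for maturation and single-strand binding, -0.15 for polymerases and -0.10 for licensing. The nucleotide supply median was 0.066 with the mean of each gene's probe sets and 0.19 without the parthenogenetic tetraploid array. For the clamp and nucleotide genes it lay mostly in the parthenogenetic pair, where their medians were -0.82 and -0.76, beside 0.11 and -0.14 in the fertilized pair. Over all members, 20 were lower in both origins (29.7% of all genes). At least 2-fold lower were 6 members in the parthenogenetic pair (10.9% of all genes) and 0 in the fertilized pair (9.72%). At least 2-fold higher were 1, Rfc1, and 0 (9.37% and 5.58%). Other tested probe sets of Rfc1 were lower in the parthenogenetic pair, at -0.43 and -0.54.

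**Figure D4:**
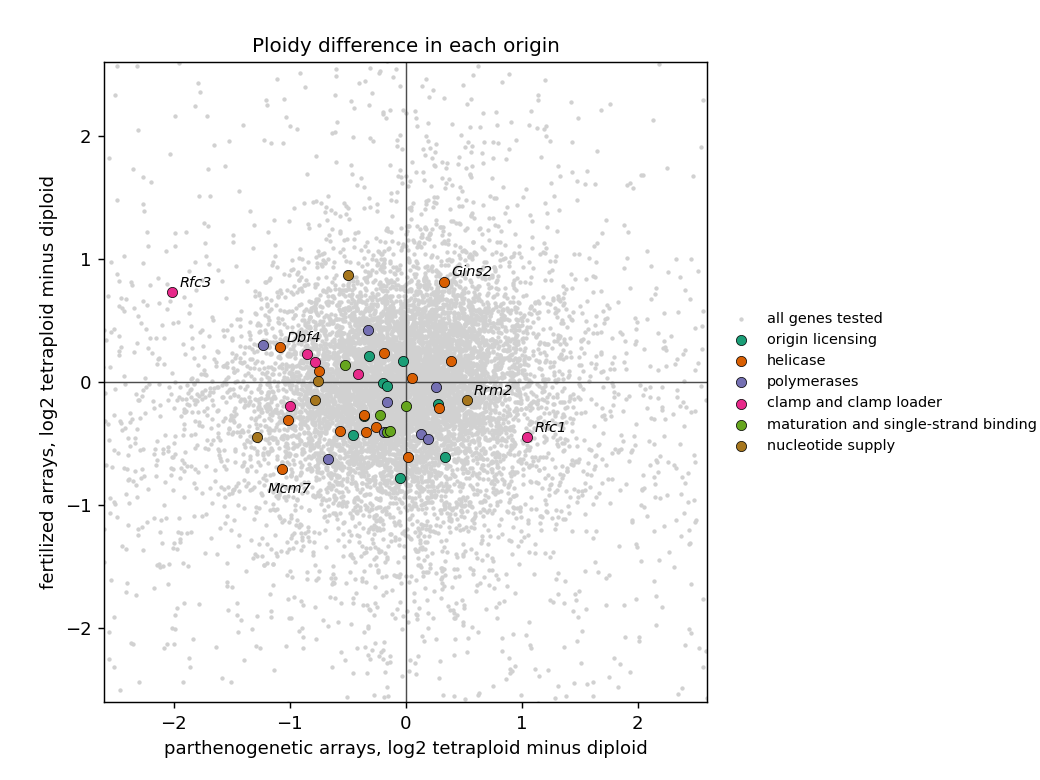
Log2 difference, tetraploid minus diploid, in the parthenogenetic pair (x axis) and the fertilized pair (y axis), with 1 coloured point per member by subgroup and grey points for all genes tested; 726 genes lie outside the axes. The members spread more widely along the x axis, from -2.01 for Rfc3 to 1.05 for Rfc1, than along the y axis.

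Several members are reported by more than 1 probe set, and these did not always share a direction. Of the 103 member probe sets 95 passed the filter, and in the origin comparison 68 of the 95 were lower in value. At an unadjusted p under 0.05, 16 probe sets were lower (4.19% of all probe sets were) and 2 were higher. The share of all probe sets that were higher was not counted, and over all genes, with 1 probe set each, it was 5.49%. Of 33 members with several tested probe sets, 15 were lower on all of them, 3 (Gins3, Fen1 and Rpa2) were higher on all, and 15 were mixed. Cdt1, Mcm7, Prim1, Pold1, Pole2, Rfc3, Rfc4 and Rpa1 were among those lower on every tested probe set. The mixed ones included Mcm5, at -0.15 on its brightest probe set and 1.33 on its dimmest, Rfc2, from -0.64 to 1.29, and Dut. The higher value of Mcm5 and of Rfc2 came from a probe set with 1 fertilized signal below the control floor. For 14 members a single probe set was tested, Gins4, Pole, Pold2, Pcna and Tk1 among them, so no second probe set bears on their values.

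A list of 50 other genes of replication, S-phase control and nucleotide metabolism was also measured. Of the 47 on the array and tested, 34 were lower in value in parthenogenetic embryos, with a median of -0.43 (-0.30 in the diploid and -0.51 in the tetraploid pair). In 22 of them the parthenogenetic signals lay below the fertilized ones without overlap, and in 3 above (19.5% and 22.3% of all genes). None was called by limma after adjustment (lowest adjusted p 0.21). At an unadjusted p under 0.05, 6 were lower and 0 higher (4.54% and 5.49% of all genes). The most negative differences were those of Dna2, a nuclease and helicase of lagging strand processing, with signals of 749 and 465 against 1525 and 1682 (log2 difference -1.42 ± 0.34 SE, limma adjusted p 0.21), and E2f2, an S-phase transcription factor, with 262 and 50.7 against 453 and 205 (log2 difference -1.30 ± 0.74 SE, limma adjusted p 0.62). The E2f2 signal on the parthenogenetic tetraploid array was below that array's control floor. In the ploidy comparison the list's median was -0.21.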

How the data were processed

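The authors deposited 1 MAS5 signal per probe set and array, an intensity on a linear scale, with the algorithm taken from the submitters' processing notes and its version unknown. The mean with 2% trimmed at each end was 500.0 on every array, and that scaling was kept. Gene names came from the platform annotation and RefSeq (GRCm38.p6): of 45101 probe sets, 64 are controls, 34945 had 1 symbol (34741 matched by gene number), 932 several and 9160 none. Probe sets at or above the array median on at least 2 of 4 arrays were kept (23746), and log2(signal + 10) was fitted with limma 3.58.1 in R 4.3.3 (lmFit, eBayes with intensity trend, Benjamini-Hochberg over all probe sets, threshold 0.05), with no ploidy term for origin (2 residual degrees of freedom) and with origin as a term for ploidy (1). Within a ploidy or origin there is 1 array a side and no test. The smallest two-sided exact permutation p for 2 against 2 arrays is 0.333, so no such test is given. The scripts were tested on simulated data. Full signals were named for the 3 members of each subgroup with the largest origin and the 2 with the largest ploidy differences; others named in the text were chosen after their values were seen. The members and lists were chosen with earlier results of these data known. Alternatives were another pseudocount, filters, scalings, variance model, probe set rule, ploidy or origin term, and each array left out. Scan dates were not used, so no batch was tested. The number of arrays limits the precision.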

Additional observations from a re-analysis of the deposited data

Results flagged for a closer look

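For 3 members each pair of arrays differed by at least 0.5 on the log2 scale, but in opposite directions. These contrasts have 1 array a side, and the difference between them was not tested. Rfc1, the large subunit of the clamp loader, was lower in parthenogenetic embryos in the diploid pair (-0.66) and higher in the tetraploid pair (0.83), where its brightest probe set gave 11383 on the parthenogenetic tetraploid array. Its other 2 tested probe sets did not repeat this. The brighter of them was lower in both pairs, at -0.34 in the diploid and -0.63 in the tetraploid pair (-0.49 over both). The dimmer was higher in the diploid pair (0.39) and lower in the tetraploid pair (-0.29), with 0.052 over both. Rfc3, another subunit of the loader, was lower in tetraploid embryos in the parthenogenetic pair (-2.01) and higher in the fertilized pair (0.73), with 1 of its 4 signals below the control floor. Tyms, thymidylate synthase, was higher in parthenogenetic embryos in the diploid pair (0.55) and lower in the tetraploid pair (-0.82), at signals of 180.3 to 338.

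A probe set annotated to both Tyms and the pseudogene Tyms-ps lies outside the members, since it names more than 1 gene. Its signal was above the control floor on all 4 arrays: 1045 in parthenogenetic diploid, 827 in parthenogenetic tetraploid, 1991 in fertilized diploid and 1146 in fertilized tetraploid embryos (log2 difference between origins -0.70 ± 0.35 SE, limma adjusted p 0.60). Transcripts of the gene and of the pseudogene cannot be told apart on it.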

How the results depend on the processing

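No condition has a replicate, the residual degrees of freedom are 2 for origin and 1 for ploidy, and the parthenogenetic tetraploid array decides many values, so the size of single differences is poorly fixed. In the origin comparison, 0 members were called under each alternative that kept all arrays, and the member median stayed below 0 in every setting run. Ploidy as a block raised the probe sets called from 41 to 142 and left 0 members called (lowest adjusted p 0.082). The fit with no intensity trend called 0 probe sets. In that fit 2 members had an unadjusted p under 0.05, and the share of all genes that did was not counted. With a common median the member median was -0.66 (all genes -0.30) and 34 members were lower without overlap (35.4% of all genes); that count, and its ploidy counterpart, was added after the data were seen. Leaving out 1 array at a time gave origin medians of -0.53 to -0.19, 34 to 40 members lower, 0 to 4 members called and 46 to 715 probe sets called (715 without the parthenogenetic diploid and 175 without the parthenogenetic tetraploid array).

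In the ploidy comparison the member median was -0.18 with a common median and -0.21 with quantile normalization. The probe sets called were 73 with no filter, 11 with a common median and 53 with quantile normalization, which called 1 member, Mcm7. With a common median 3 members were lower without overlap (9.91% of all genes). With 1 array left out the medians ran over -0.42 to 0.037, members lower over 18 to 42 and probe sets called over 0 to 12.

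The stricter filter left 45 members, without Rfc3 and Tyms. Some single genes changed sign. With a common median the origin difference was -0.19 for Gins3, -0.17 for Cdc7, -0.064 for Pola1, -0.24 for Rfc1 and -0.28 for Fen1, and with quantile normalization -0.0058 for Fen1. With the mean of a gene's probe sets it was 0.072 for Orc3, 0.32 for Orc4, 0.42 for Mcm5, -0.71 for Gins2, -0.12 for Rfc1 and 0.059 for Rfc2, and the ploidy difference was 0.21 for Rrm1, 0.023 for Mcm5, -0.046 for Cdc45 and -0.56 for Gins2. The means of Orc4, Mcm5, Gins2, Rfc2, Rrm1 and Cdc45 take in a probe set below the control floor on 1 array (for Gins2 a signal of 6.73). Leaving out 1 array turned the sign of 14 origin differences, which ran over -0.26 to 0.13 for Cdc45, -0.26 to 0.20 for Gmnn, -0.66 to 0.35 for Mcm3, -0.33 to 0.031 for Mcm5, -0.97 to 0.10 for Mcm7, -0.71 to 0.036 for Mcm10, -0.73 to 0.35 for Dbf4, -0.63 to 0.15 for Orc3, -0.49 to 0.12 for Orc5, -0.18 to 0.43 for Gins3, -0.44 to 0.61 for Rfc1, -0.57 to 0.30 for Tyms, -0.41 to 0.0023 for Lig1 and -0.053 to 0.14 for Fen1. Over all 47 members the count lower in tetraploid embryos went from 35 to 18 without the parthenogenetic tetraploid array. Among the 16 members whose ploidy differences were refitted one by one, 4 changed sign, which ran over -1.24 to 0.31 for Pola2, -1.84 to 0.56 for Rfc3, -1.30 to 0.11 for Rfc4 and -0.57 to 0.032 for Rpa1. The cause was not tested in any of these.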

Other observations

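The E2F factors and the cyclins on the list of other replication genes gave a mixed picture. E2f3 had signals of 503 and 451 against 784 and 748, with both parthenogenetic values the lower ones (log2 difference -0.67 ± 0.34 SE, limma adjusted p 0.6). E2f1 had 158 and 331 against 308 and 218 and E2f4 221 and 177 against 213 and 118, and neither separated by origin. Ccna2, the S-phase cyclin, had 4178 and 2825 against 4844 and 4806 (log2 difference -0.49 ± 0.28 SE) and was lower without overlap. Ccne2 had 203 and 147 against 253 and 364, but its parthenogenetic tetraploid signal was below the control floor of that array. Ccne1, with 2534 and 1640.1 against 1937 and 1675, and the kinase Cdk2, with 2656 and 1611 against 2378 and 3192, overlapped between origins. None of these passed limma's test after adjustment.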
